A study of Homo sapiens with 18 samples.

Results

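A total of 9 genes whose products mark or drive the epithelial and mesenchymal states of breast cancer cells were followed through both overexpression experiments of the study. They were taken by symbol from both count tables, which list 60603 genes each, of which 60306 have a symbol. The epithelial genes were CDH1 (E-cadherin) and EPCAM, the mesenchymal genes were CDH2 (N-cadherin) and VIM (vimentin), and the transcription factors were SNAI1, SNAI2, ZEB1, ZEB2 and TWIST1. The cells were MDA-MB-231, a human breast adenocarcinoma line of the basal subtype. Poly(A) RNA was sequenced from 18 libraries in 9 conditions, with 2 libraries each that the labels call replicates.

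The transient experiment had 3 conditions. Control cells are labelled untreated, where the protocol describes an empty vector and the drug's vehicle. The others were control cells given 0.6 µM doxorubicin for 48 h, and cells transfected with a FLAG-tagged ZMYND8 plasmid under a CMV promoter 24 h before the same treatment. The inducible experiment had 6 conditions in lines that carried a doxycycline-inducible GFP or Flag-ZMYND8 cDNA from a lentiviral vector, selected with G418. All 6 received 250 ng/mL doxycycline, and doxorubicin (0.6 µM) was absent or added 4 h later for 6 or 48 h. Time since induction was therefore longer at 48 h than at 6 h of doxorubicin, and it is not given here for untreated cells. Effects of time under the drug and of time since induction cannot be told apart. ZMYND8 is a chromatin reader, and doxorubicin is an anthracycline used in chemotherapy that breaks DNA. GFP and ZMYND8 cells are separate stable lines, so an effect of ZMYND8 and a difference between the lines cannot be told apart, and whether the lines are clonal is not given in the sources used here.

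In the epithelial to mesenchymal transition (EMT), cells lose adherens junctions built from E-cadherin and gain vimentin filaments, N-cadherin and motility. SNAI, ZEB and TWIST proteins are the transcription factors best known for driving it, and those of the SNAI and ZEB families repress CDH1 by binding E-box sequences in its promoter. MDA-MB-231 is widely used as a mesenchymal-like line with little E-cadherin and abundant vimentin. The study asked how ZMYND8 and a low dose of chemotherapy alter genes of this kind, and its own qRT-PCR assays covered several of the members.

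Primers of that assay are shown for the members whose transcripts they were matched to, since they bound the stretch that was measured. They are given 5′ to 3′ and were located in GENCODE transcripts.
ZEB1 forward: aagaaagtgttacagatgcagctg
ZEB1 reverse: ccctggtaacactgtctggtc
VIM forward: acaccctgcaatctttcagaca
VIM reverse: gattccactttgcgttcaaggt
TWIST forward: gcgctgcggaagatcatc
TWIST reverse: gcttgagggtctgaatcttgct
The pair for ZEB1 encloses 80 bases in 19 ZEB1 transcripts and the pair for VIM 76 bases in 6 VIM transcripts. The pair the study names TWIST encloses 64 bases in 2 transcripts of TWIST1 and in no transcript of another gene.

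RefSeq promoter windows of 300 bases (GRCh38.p14) were given for 4 members, VIM, ZEB1, ZEB2 and CDH2. The ZEB1 window is shown because it holds the most matches of the 7 given for ZEB1, the 1 member with any, and the VIM window as an example without a match. The windows of ZEB2 and CDH2 hold 0 matches too. Capitals mark the E-box CAGGTG or its reverse complement CACCTG, the letters that SNAI and ZEB proteins are known to bind.
ZEB1, chr10:31318966-31319265, + strand: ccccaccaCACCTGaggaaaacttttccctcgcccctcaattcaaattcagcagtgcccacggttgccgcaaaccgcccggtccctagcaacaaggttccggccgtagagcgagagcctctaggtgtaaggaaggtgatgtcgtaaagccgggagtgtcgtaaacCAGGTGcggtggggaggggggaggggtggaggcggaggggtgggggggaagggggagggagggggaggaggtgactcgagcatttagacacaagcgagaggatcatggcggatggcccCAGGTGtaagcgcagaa
VIM, chr10:17227991-17228290, + strand: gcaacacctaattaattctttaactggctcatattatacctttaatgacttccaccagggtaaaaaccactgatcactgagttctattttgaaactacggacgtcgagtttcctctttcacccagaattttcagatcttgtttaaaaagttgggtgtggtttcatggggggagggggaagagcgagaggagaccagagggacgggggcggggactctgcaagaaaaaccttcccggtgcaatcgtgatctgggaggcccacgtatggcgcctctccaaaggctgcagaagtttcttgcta
The ZEB1 window holds 3 matches and the VIM window 0. Of the 7 ZEB1 windows 2 hold a match, as do 0 of the 4 windows of the other members, against 20.6% of all 35116 windows. A match describes letters in the window and is no evidence of binding.

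On hg38 the epithelial genes lie at chr16:68737292-68835541 (CDH1, ENSG00000039068.19, + strand) and chr2:47345158-47387601 (EPCAM, ENSG00000119888.10, + strand). CDH2 (ENSG00000170558.9) lies at chr18:27950966-28177130 on the - strand and VIM (ENSG00000026025.16) at chr10:17228241-17237593 on the + strand. SNAI1 (ENSG00000124216.4) is at chr20:49982980-49988886, + strand, and SNAI2 (ENSG00000019549.13) at chr8:48917598-48921740, - strand. ZEB1 (ENSG00000148516.21) is at chr10:31318495-31529814, + strand, ZEB2 (ENSG00000169554.21) at chr2:144364364-144521057, - strand, and TWIST1 (ENSG00000122691.13) at chr7:19020991-19117636, - strand. Counts were summed over the exons of each gene.

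Depth was 18300628 to 23724398 counts in the 12 inducible libraries and 5729294 to 5972396 in 5 of the 6 transient libraries, with 24713822 in the second doxorubicin library. In the inducible lines ZMYND8 stood at 208 and 209 CPM (counts scaled for depth with TMM factors) in GFP cells and at 922 and 927 CPM in ZMYND8 cells. With doxorubicin it fell in GFP cells, 2.16-fold at 6 h and 1.49-fold at 48 h, and no change was called in ZMYND8 cells. It was thus 4.43-fold higher in ZMYND8 than in GFP cells without drug, 8.94-fold at 6 h and 6.89-fold at 48 h. In the transient experiment it stood at 199 and 219 CPM in control libraries, 123 and 182 CPM with doxorubicin, and 125 and 160 CPM in the ZMYND8-labelled treated libraries, which goes against that label. Of the transient libraries, the second one of each treated condition were closer to each other (chi-square per degree of freedom 1.39) than any of the other 14 transient pairs (9.71 to 55.6). Replicate pairs of the inducible lines, at other depths, stood at 2.19 to 5.21. Whether these close transient libraries come from the same sample was not tested. Antisense genes inside the exons of an abundant gene had 1.43 to 1.62 times its read density in the transient libraries, against 0.0711 to 0.1 in the inducible ones, so sense and antisense reads cannot be told apart in the transient counts. Antisense genes overlap the exons of 6 members. VIM-AS1 covers 12.4% of the exon bases of VIM and a second antisense gene 12%. The share was 7.06% for TWIST1, 5.69% for CDH1 (by a gene with 0 to 29 counts in the transient libraries), 5.23% for ZEB2 (by ZEB2-AS1), 4.58% for ZEB1 (by ZEB1-AS1) and 2.93% for CDH2.

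Markers of basal-type breast cancer lines, which include VIM, summed to 2145 to 4724 TPM (a level scaled for depth and exon length) over all libraries. The 9 luminal markers summed to 83.7 to 235 TPM. Of these, ESR1, PGR, FOXA1 and TFF1 did not exceed 1.15 CPM in any library, whereas XBP1 stood at 63.6 to 143 CPM, GATA3 at 8.86 to 20.4 CPM and AGR2 at 1.15 to 33.0 CPM. Leukocyte markers summed to at most 5.7 TPM, endothelial markers to at most 6.01 TPM and fibroblast markers to at most 21.6 TPM. The low level of CDH1 is given next.

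Compared per length in GFP cells without doxorubicin, VIM was the most abundant member at 2917 ± 8.70 TPM (SD, n = 2). EPCAM stood at 49.7 ± 0.314, ZEB1 at 44.2 ± 0.744 and SNAI2 at 36.9 ± 1.22 TPM, with no overlap between these neighbours. SNAI1 followed at 4.30 ± 0.992 and ZEB2 at 2.57 ± 0.0688 TPM. At the low end CDH1 (0.398 ± 0.109 TPM) and CDH2 (0.321 ± 0.0891 TPM) did not differ beyond their spread. Both cadherins whose exchange is the textbook sign of EMT were thus scarce in untreated GFP cells, with 17 and 11 counts of CDH1 and 7 and 10 counts of CDH2.

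**Figure D1:**
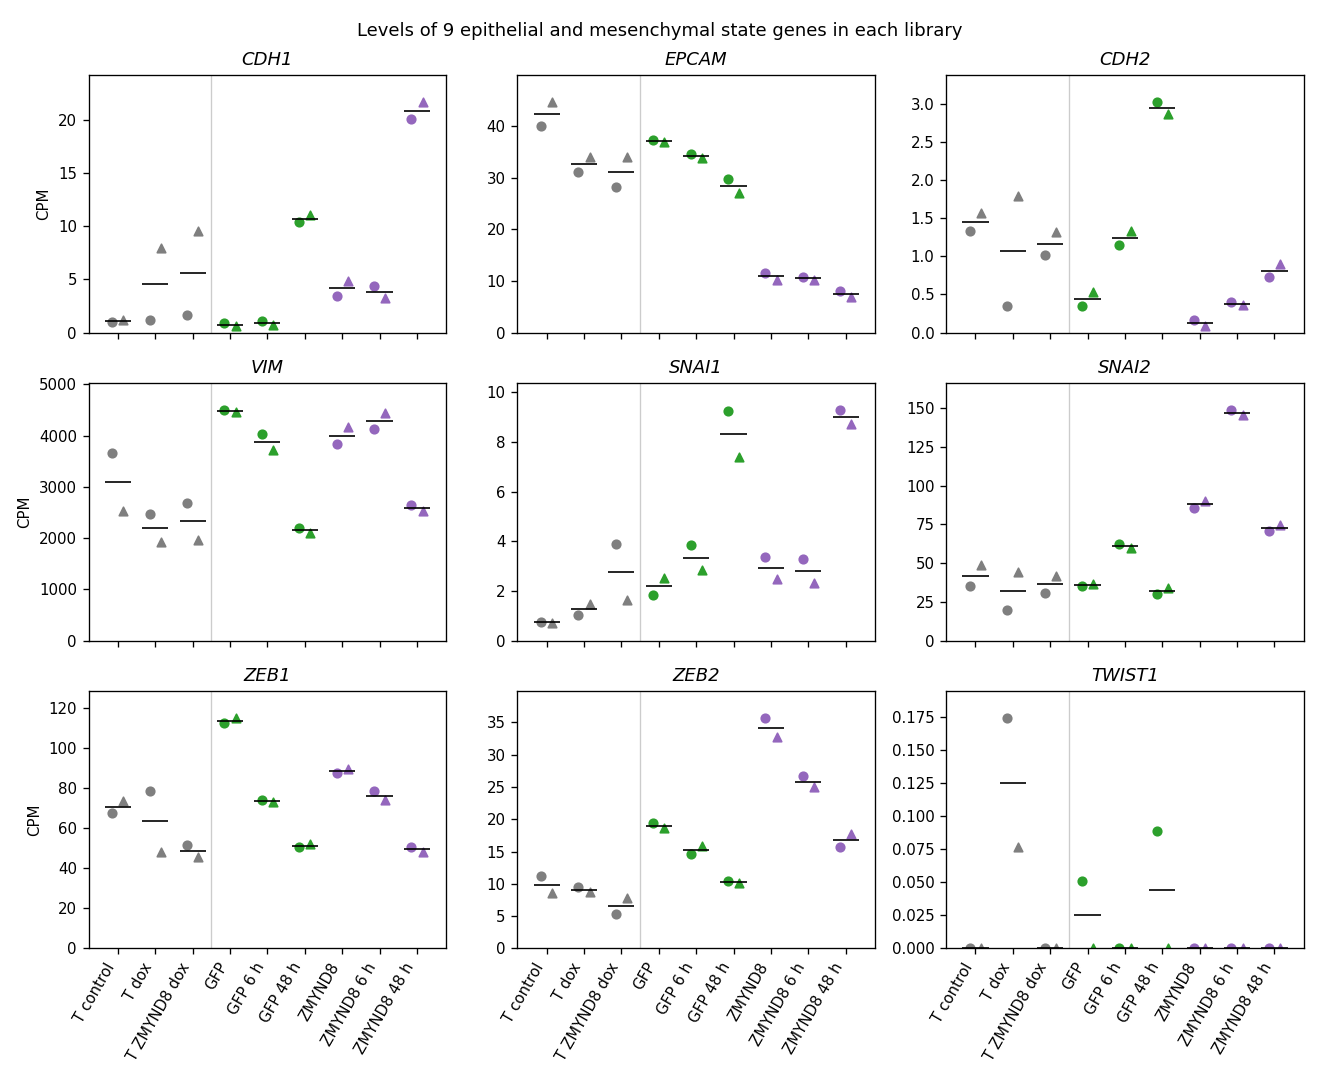
Level of each member in CPM (linear axes from 0) in the 2 libraries of each condition, with circles for the first and triangles for the second library and a line at their mean. T stands for the transient experiment (grey), where dox is 48 h of doxorubicin, and GFP and ZMYND8 cells are green and purple. CDH1 in ZMYND8 cells after 48 h of doxorubicin reached 20.1 and 21.7 CPM, while all TWIST1 values lie below 0.2 CPM.

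TWIST1, a basic helix-loop-helix factor of EMT, was at the limit of detection. It had 1 count in the first GFP library, 2 counts in the first GFP library after 48 h of doxorubicin, 1 and 2 counts in the transient doxorubicin libraries, and 0 counts in every other library. A count of 0 allows a level of up to 3 counts, which is 0.122 to 0.168 CPM in the inducible and 0.114 to 0.572 CPM in the transient libraries. TWIST1 did not pass the filter on low counts in either experiment, and no change in it was detectable at this depth. The remaining 8 members passed the filter in the inducible experiment, and 7 passed in the transient experiment, where CDH2 had 2 to 47 counts and did not pass.

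In cells with inducible ZMYND8 and no doxorubicin, the epithelial markers moved in opposite directions, CDH1 up and EPCAM down, and the repressors SNAI2 and ZEB2 were higher. At an adjusted p of at most 0.05, 3 members were higher and 4 lower than in GFP cells out of 8 tested, where 28.7% of all genes tested were higher and 29.5% lower (58.3% together), so the number of calls is little guide and the sizes are given for each member. With the study's criterion (unadjusted p of at most 0.05 with a log2 change, up or down, that reaches 1.5) the calls were CDH1, CDH2 and EPCAM, against 11.4% of all genes tested.

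CDH1, the adhesion molecule of epithelial junctions, stood at 0.862 and 0.580 CPM in GFP cells and at 3.46 and 4.86 CPM in ZMYND8 cells. Both ZMYND8 libraries lay above both GFP libraries. The log2 fold change was 2.53 ± 0.27 (SE), a 5.79-fold rise (adjusted p = 4.34e-09). EPCAM, an epithelial adhesion glycoprotein, stood at 37.4 and 37.0 CPM in GFP cells and 11.5 and 10.2 CPM in ZMYND8 cells. It fell 3.43-fold (log2 fold change -1.78 ± 0.09, adjusted p = 3.34e-15), again without overlap.

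CDH2, the mesenchymal cadherin, had 7 and 10 counts in GFP libraries and 3 and 2 counts in ZMYND8 libraries. The ratio of its pooled level in ZMYND8 to GFP cells was 0.279, with a 95% exact counting interval of 0.0805 to 0.788, which covers counting error only. Its adjusted p of 0.0166 was lost with DESeq2 (0.0565), without the second GFP library (0.121) and without the second ZMYND8 library (0.160). VIM, the intermediate filament of mesenchymal cells, stood at 4494 and 4468 CPM in GFP and 3829 and 4175 CPM in ZMYND8 cells. It fell by 0.16 ± 0.04 on the log2 scale (adjusted p = 0.00253), a call that was lost without the first ZMYND8 library (log2 fold change -0.088, adjusted p = 0.123).

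Among the transcription factors, SNAI2 (Slug) rose from 35.1 and 36.8 CPM to 85.4 and 90.4 CPM, which is 2.45-fold (log2 fold change 1.29 ± 0.06, adjusted p = 1.55e-16). ZEB2 rose from 19.4 and 18.6 CPM to 35.6 and 32.8 CPM (log2 fold change 0.85 ± 0.09, adjusted p = 3.05e-09). The zinc-finger relatives ZEB1 and ZEB2 therefore changed in opposite directions. ZEB1 fell from 112 and 115 CPM to 87.6 and 89.6 CPM (log2 fold change -0.36 ± 0.05, adjusted p = 2.61e-07). SNAI1 (Snail) stood at 1.82 and 2.53 CPM in GFP and 3.35 and 2.49 CPM in ZMYND8 cells, values that overlap, and was not called (adjusted p = 0.164).

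Marker lists of cell types were read in this comparison too, where 28.7% of all genes tested were higher and 29.5% lower. The summed luminal list went from 166 and 172 TPM to 225 and 235 TPM, with 3 of its 9 genes called higher and 1 lower. XBP1 alone stood at 91.0 to 163 TPM over the inducible libraries. The summed endothelial list went from 3.50 and 3.82 TPM to 0.766 and 0.910 TPM, with 3 of 3 genes tested called lower. Of 7 basal-type markers 3 were higher and 3 lower. In the fibroblast list 1 of 4 genes tested was lower, and in the leukocyte list 1 of 2. The part of these lists in the changes of the members was not tested.

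**Figure D2:**
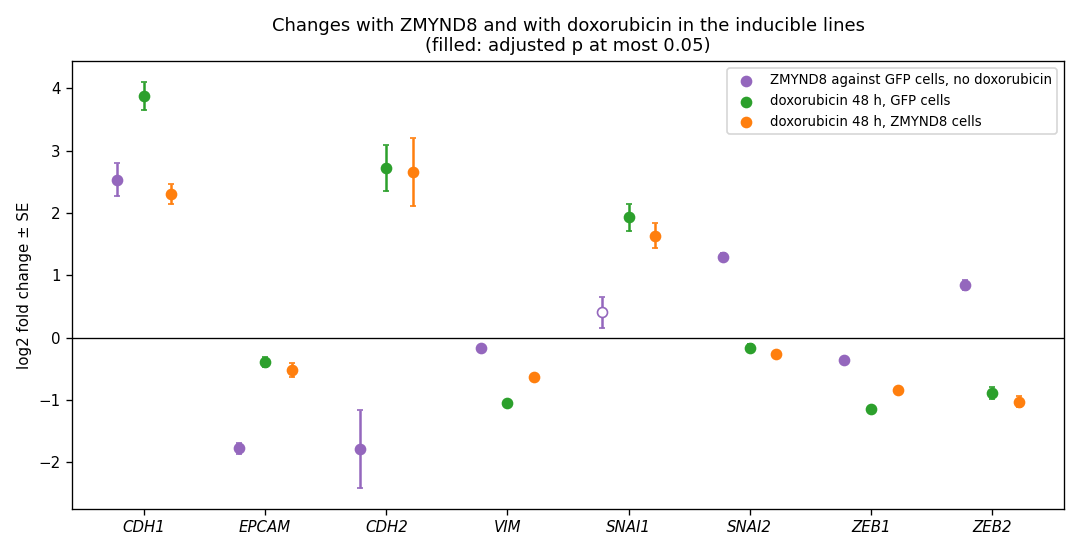
Log2 fold change with its SE for the 8 members tested in the inducible lines, for ZMYND8 against GFP cells without doxorubicin and for 48 h of doxorubicin in each line. Filled points have an adjusted p of at most 0.05. CDH1 was higher in all 3 comparisons, and EPCAM, VIM and ZEB1 were lower in all 3.

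After 48 h of doxorubicin, CDH1, CDH2 and SNAI1 rose in both inducible lines, while VIM, ZEB1 and ZEB2 fell in both. All 8 members tested were called in GFP cells, 3 higher and 5 lower, where 32.4% of all genes tested were higher and 31.8% lower (64.2% together). Likewise 8 of 8 were called in ZMYND8 cells, with the same split, where 31.6% of all genes were higher and 30.8% lower (62.3% together). By the study's criterion CDH1, CDH2 and SNAI1 passed in both lines, against 13.2% of all genes tested in GFP and 12.4% in ZMYND8 cells. These comparisons use separate control libraries.

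CDH1 reached 10.4 and 11.02 CPM in GFP cells, 14.7-fold above the untreated level given before (log2 fold change 3.88 ± 0.23, adjusted p = 2.64e-14). In ZMYND8 cells it reached 20.1 and 21.7 CPM, 4.94-fold above untreated ZMYND8 cells (log2 change 2.31 ± 0.15, adjusted p = 4.58e-13). No treated library overlapped an untreated one in either line. EPCAM did not follow CDH1. It stood at 29.8 and 27.0 CPM in GFP cells (log2 fold change -0.39 ± 0.08, adjusted p = 1.51e-04) and at 8.13 and 6.89 CPM in ZMYND8 cells (log2 change -0.52 ± 0.11, adjusted p = 2.29e-04). The fall in GFP cells was lost when libraries were scaled to total counts (log2 fold change -0.14, adjusted p = 0.124), a scaling under which the median of all genes shifted to 0.27.

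CDH2 rose along with CDH1. It had 68 and 68 counts in treated GFP libraries, 3.02 and 2.86 CPM (log2 fold change 2.72 ± 0.37, adjusted p = 3.06e-07). In ZMYND8 cells it had 18 and 21 counts after 48 h. The ratio of pooled levels to untreated ZMYND8 cells was 6.61 with a 95% exact counting interval of 2.60 to 21.5. VIM fell to 2206 and 2106 CPM in GFP cells, 2.08-fold (log2 fold change -1.06 ± 0.04, adjusted p = 2.97e-17). In ZMYND8 cells it fell to 2639 and 2535 CPM, 1.55-fold (log2 fold change -0.63 ± 0.04, adjusted p = 1.80e-12).

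SNAI1, by contrast with the other transcription factors, rose in both lines. It stood at 9.23 and 7.40 CPM in treated GFP cells (log2 fold change 1.93 ± 0.22, adjusted p = 1.15e-08) and at 9.27 and 8.72 CPM in treated ZMYND8 cells (log2 change 1.64 ± 0.20, adjusted p = 8.35e-08). ZEB1 came down to 50.5 and 51.8 CPM in GFP cells (log2 fold change -1.15 ± 0.05, adjusted p = 3.41e-17). In ZMYND8 cells it came down to 50.5 and 48.2 CPM (log2 fold change -0.84 ± 0.05, adjusted p = 4.26e-14), and the treated libraries of both lines overlapped. ZEB2 stood at 10.4 and 10.1 CPM in treated GFP cells (log2 fold change -0.89 ± 0.10, adjusted p = 1.17e-08) and 15.7 and 17.8 CPM in treated ZMYND8 cells (log2 change -1.03 ± 0.09, adjusted p = 5.13e-11). SNAI2 stood at 30.1 and 33.7 CPM in treated GFP cells and 71.0 and 75.0 CPM in treated ZMYND8 cells, just below the untreated levels. Its log2 fold change of -0.17 ± 0.07 in GFP cells (adjusted p = 0.0254) was no longer called with RLE size factors (0.0852), with DESeq2 (0.157), without the second GFP library (0.130) or without the first treated GFP library (0.277), and was 0.076 with total counts. In ZMYND8 cells it was -0.27 ± 0.05 (adjusted p = 6.77e-05), which total counts did not keep (adjusted p = 0.297).

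With 48 h of doxorubicin in GFP cells the summed leukocyte markers went from 1.08 and 1.37 TPM to 5.37 and 5.70 TPM, with 2 of 2 genes tested called higher, and the summed fibroblast markers from 4.45 and 6.18 TPM to 10.1 and 10.7 TPM, with 3 of 4 called higher. The list of basal-type line markers went from 4721 and 4724 TPM to 2676 and 2718 TPM, with 7 of 7 called lower, VIM among them. The summed luminal markers went from 166 and 172 TPM to 115 and 124 TPM, with 5 of 9 called lower and 2 higher, and of 3 endothelial genes tested 1 was higher and 1 lower. In ZMYND8 cells at 48 h the basal-type list was lower for 7 of 7, from 4304 and 4458 TPM to 2792 and 2811 TPM. The leukocyte list was higher for 2 of 2 (1.07 and 1.32 TPM to 3.17 and 4.04 TPM) and the endothelial list for 2 of 3 (0.766 and 0.910 TPM to 1.77 and 1.79 TPM). Of the fibroblast genes 1 of 4 was higher, and of the luminal genes 3 were higher and 3 lower. Beside these counts, 32.4% of all genes tested were higher and 31.8% lower in GFP cells. In ZMYND8 cells 31.6% were higher and 30.8% lower. The part of these lists in the changes of the members was not examined. All libraries came from MDA-MB-231 cells, so the lists are read as levels of genes in this line and not as numbers of other cell types. The leukocyte genes were scarce, with at most 94 counts for PTPRC and 37 for LYZ in any inducible library. Of the fibroblast genes, DCN, PDGFRA and LUM had at most 15, 20 and 7 counts there, COL1A2 at most 77 and COL1A1 at most 510. In bulk RNA, a change in the share of cells that express a gene and a change in RNA per cell cannot be told apart.

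Early after the drug, at 6 h, the picture differed. SNAI2 had the smallest adjusted p of the members that rose, and CDH1 was not called in either line (adjusted p = 0.520 and 0.557). In GFP cells 3 members were higher and 3 lower of 8 tested, against 22.1% and 25.8% of all genes (47.9% together), and in ZMYND8 cells 1 was higher and 2 lower, against 21.8% and 19% (40.8% together). The criterion of the study called 0 members in GFP cells, against 4.71% of all genes, and CDH2 in ZMYND8 cells, against 2.73%. SNAI2 reached 62.0 and 59.9 CPM in GFP cells (log2 fold change 0.76 ± 0.06, adjusted p = 4.59e-11) and 149 and 145 CPM in ZMYND8 cells (log2 change 0.74 ± 0.05, adjusted p = 3.72e-12). In both lines every 6 h library lay above every untreated and every 48 h library, so the level came back down by 48 h.

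At 6 h ZEB1 had already fallen to 73.9 and 73.2 CPM in GFP cells (log2 fold change -0.62 ± 0.05, adjusted p = 2.11e-11) and to 78.6 and 73.8 CPM in ZMYND8 cells (log2 change -0.22 ± 0.05, adjusted p = 6.21e-04). ZEB2 stood at 14.7 and 15.9 CPM in GFP cells (log2 fold change -0.31 ± 0.10, adjusted p = 0.00864) and 26.7 and 25.0 CPM in ZMYND8 cells (log2 change -0.40 ± 0.08, adjusted p = 2.79e-04). CDH2 rose in GFP cells to 22 and 25 counts (log2 fold change 1.49 ± 0.41, adjusted p = 0.00374) and had 8 and 7 counts in ZMYND8 cells (ratio of pooled levels 3.11, 95% exact counting interval 1.07 to 10.9, adjusted p = 0.0513). VIM fell in GFP cells to 4037 and 3721 CPM (log2 fold change -0.21 ± 0.04, adjusted p = 2.94e-04) and stood at 4122 and 4450 CPM in ZMYND8 cells, where it was not called (adjusted p = 0.0787) unless the second untreated ZMYND8 library (0.00618) or the first 6 h library (0.0112) was left out.

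SNAI1 was called at 6 h in GFP cells, at 3.83 and 2.84 CPM (log2 fold change 0.62 ± 0.25, adjusted p = 0.0401), and not in ZMYND8 cells, at 3.30 and 2.31 CPM (adjusted p = 0.935). The call in GFP cells was lost with DESeq2 (0.0769), without the first GFP library (0.305) and without the first 6 h library (0.336). Without the first GFP library the number of members called at 6 h fell from 6 to 3, since ZEB2 (0.0628) and CDH2 (0.0566) were lost too, and ZEB2 was also lost without the first 6 h library (0.0941). CDH1 stood at 1.05 and 0.749 CPM in GFP cells and 4.34 and 3.20 CPM in ZMYND8 cells at this time, overlapping untreated libraries in both lines.

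**Figure D3:**
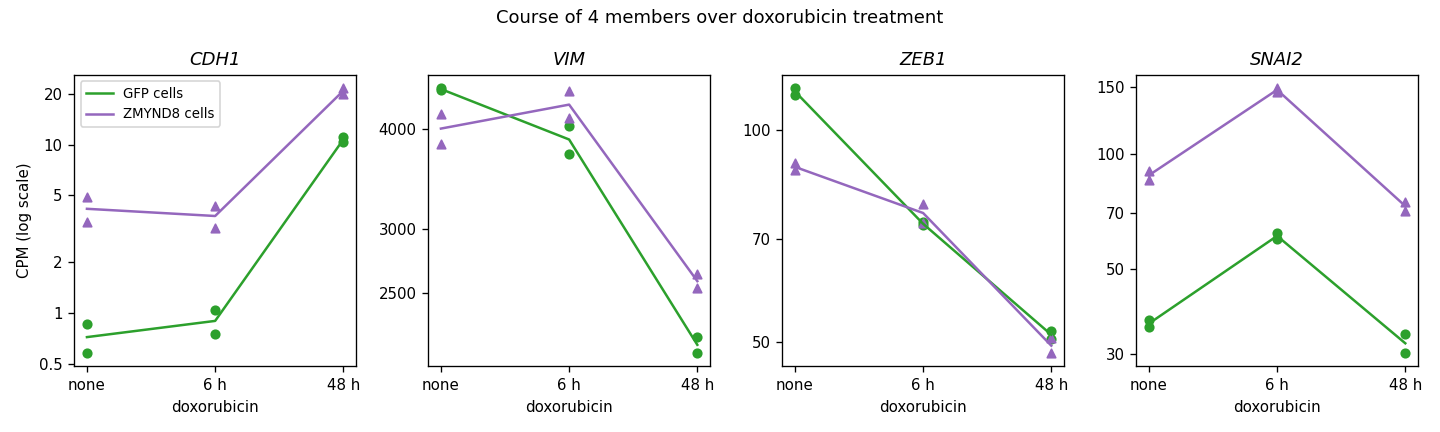
Level of CDH1, VIM, ZEB1 and SNAI2 in CPM (log axes, each with its own range) without doxorubicin and after 6 and 48 h, spaced evenly, in GFP cells (green circles) and ZMYND8 cells (purple triangles). Points are single libraries and lines join the means of 2. SNAI2 peaked at 6 h in both lines, at 59.9 to 62.0 CPM in GFP and 145 to 149 CPM in ZMYND8 cells.

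Whether the response to doxorubicin differed between the lines was tested as an interaction, in which 28.6% of all genes tested were called at 48 h and 13.4% at 6 h. The part of time since induction in this interaction was not tested. At 48 h 3 of 8 members were called. The rise of CDH1 was smaller in ZMYND8 cells by 1.57 on the log2 scale (interaction -1.57 ± 0.31, adjusted p = 2.88e-04), from a higher start to a higher end. The fall of VIM was weaker in ZMYND8 cells (interaction 0.43 ± 0.06, adjusted p = 6.88e-06), as was that of ZEB1 (interaction 0.30 ± 0.07, adjusted p = 0.00153). At 6 h the 2 members called were VIM (interaction 0.31 ± 0.06, adjusted p = 0.00120) and ZEB1 (interaction 0.41 ± 0.07, adjusted p = 1.61e-04). For EPCAM, SNAI1, SNAI2 and ZEB2 the interaction was not called at either time (adjusted p from 0.235 to 0.924), and for CDH1 it was not called at 6 h (adjusted p = 0.530), nor for CDH2 at either time. This does not show that their responses were equal. By the criterion of the study the interaction passed for CDH1 at 48 h, against 3.7% of all genes, and for 0 members at 6 h, against 2.01%.

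Under doxorubicin the differences between ZMYND8 and GFP cells kept their direction for CDH1, CDH2, EPCAM, SNAI2 and ZEB2. In the treated cells 4 of 8 members were higher and 2 lower in ZMYND8 cells at 48 h, against 28.4% and 31.6% of all genes tested (60% together). The numbers at 6 h were also 4 and 2, against 28.9% and 26.6% (55.5% together). By the criterion of the study CDH2 and EPCAM passed at 48 h, against 9.44% of all genes, and CDH1 with both at 6 h, against 10.6%. At 48 h CDH1 remained higher (log2 fold change 0.96 ± 0.13, adjusted p = 5.39e-07), as did SNAI2 (1.19 ± 0.06, adjusted p = 8.96e-16) and ZEB2 (0.70 ± 0.10, adjusted p = 6.25e-07). EPCAM was 3.77-fold lower (log2 fold change -1.91 ± 0.10, adjusted p = 2.01e-15) and CDH2 was lower (log2 fold change -1.85 ± 0.32, adjusted p = 1.44e-05). At 6 h the values were 2.06 ± 0.26 for CDH1, 1.27 ± 0.05 for SNAI2, 0.76 ± 0.09 for ZEB2, -1.70 ± 0.10 for EPCAM and -1.69 ± 0.42 for CDH2, all as log2 fold changes and all called.

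VIM changed its order between the lines. Without drug it was slightly lower in ZMYND8 cells (log2 fold change -0.16 ± 0.04, and -0.088 without the first ZMYND8 library). At 48 h it was higher there (log2 fold change 0.26 ± 0.04, adjusted p = 1.16e-05), with 2639 and 2535 CPM against 2206 and 2106 CPM. At 6 h it was higher by 0.14 ± 0.04 (adjusted p = 0.00728), a call lost with DESeq2 (0.0825), without the second GFP library at 6 h (0.174) and without the second ZMYND8 library at 6 h (0.140). ZEB1 was not called between the treated lines at 6 h (adjusted p = 0.405) or 48 h (adjusted p = 0.412), and SNAI1 was not called at either time (adjusted p = 0.399 and 0.593).

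In the transient experiment none of the 7 members tested was called in any comparison at an adjusted p of at most 0.05 with edgeR, and DESeq2 also called 0. With no filter on low counts or with a replicate block, CDH1 was called in both comparisons with control. By the unadjusted p of edgeR alone, at the same threshold, 1 member passed for doxorubicin, against 22.2% of all genes, 2 for the ZMYND8-labelled treated libraries, against 24.4%, and 0 between the treated conditions, against 0.344%. By the adjusted p the share of all genes called was 5.13% for doxorubicin against control, 6.82% for the ZMYND8-labelled treated libraries against control, and 0% for these against doxorubicin alone. With an unadjusted p of at most 0.05 and a log2 change, up or down, that reaches 1, CDH1 passed with doxorubicin, against 8.7% of all genes, and CDH1 and SNAI1 passed in the ZMYND8-labelled treated libraries, against 9.84%. The libraries of control and treated cells did not overlap for 3 members with doxorubicin (50.4% of all genes) and for 5 members in the ZMYND8-labelled treated libraries (52%).

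CDH1 stood at 0.954 and 1.22 CPM in control libraries, at 1.22 and 7.93 CPM with doxorubicin, and at 1.69 and 9.52 CPM in the ZMYND8-labelled treated libraries. In each treated condition the high value was that of the second library, the pair that resembled each other most. The log2 fold change was 2.21 ± 0.93 with doxorubicin (adjusted p = 0.192) and 2.35 ± 0.96 in the ZMYND8-labelled treated libraries (adjusted p = 0.160). Without the second doxorubicin library the first of these was 0.16 (adjusted p = 0.974), and without the second ZMYND8-labelled treated library the other was 0.61 (adjusted p = 0.817). With no filter on low counts both were called (adjusted p = 7.66e-04 and 5.72e-04). Both were also called with the replicate number as a block (adjusted p = 0.0217 and 0.0117), which raised the genes called from 805 to 2410 and from 1071 to 2795. The labels do not say that the numbers pair cultures.

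EPCAM stood at 40.1 and 44.5 CPM in control libraries, at 31.1 and 34.1 CPM with doxorubicin, and at 28.2 and 34.0 CPM in the ZMYND8-labelled treated libraries. Both treated conditions lay below both control libraries, with log2 fold changes of -0.37 ± 0.21 (adjusted p = 0.336) and -0.44 ± 0.22 (adjusted p = 0.237). VIM stood at 3656 and 2530 CPM in control libraries, 2470 and 1922 CPM with doxorubicin, and 2691 and 1959 CPM in the ZMYND8-labelled treated libraries. Its log2 fold changes against control were -0.49 ± 0.26 (adjusted p = 0.304) and -0.41 ± 0.26 (adjusted p = 0.375).

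SNAI1 had 4 and 4 counts in control libraries, 6 and 39 counts with doxorubicin, and 23 and 10 counts in the ZMYND8-labelled treated libraries. That is 0.763 and 0.696, 1.04 and 1.49, and 3.89 and 1.64 CPM. The log2 fold changes against control were 0.86 ± 0.66 (adjusted p = 0.487) and 1.90 ± 0.65 (adjusted p = 0.100). SNAI2 ranged from 19.8 to 48.5 CPM, ZEB1 from 45.6 to 78.5 CPM and ZEB2 from 5.41 to 11.3 CPM over the 6 libraries, and CDH2 from 0.347 to 1.79 CPM.

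Around the members, 6 lists of genes with related roles were read in the same fits. The shares of all genes called in each direction, 28.7% higher and 29.5% lower in ZMYND8 against GFP cells and 32.4% and 31.8% after 48 h in GFP cells, are the background for each list. Desmosome, tight junction and adherens junction genes were mostly lower in ZMYND8 cells, 16 lower and 3 higher of 25 tested, with a median log2 fold change of -0.29 where that of all genes was 0. CTNNB1, the beta-catenin that links E-cadherin to the cytoskeleton, was lower (-1.19 ± 0.04, adjusted p = 7.68e-20), and so was JUP, plakoglobin (-1.37 ± 0.06, adjusted p = 5.89e-17). Mean CTNNB1 in untreated transient control, GFP and ZMYND8 cells was 625, 800 and 349 CPM, and mean JUP 60.4, 163 and 62.9 CPM. The 2 experiments were normalized apart. After 48 h of doxorubicin in GFP cells 13 junction genes were lower and 6 higher (median -0.42), and the tight junction gene CGN (cingulin) rose (3.004 ± 0.11, adjusted p = 2.29e-18).

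Regulators of the epithelial state were higher after 48 h in GFP cells for 10 of 14 tested and lower for 3, with a median log2 fold change of 1.03. Of those higher, FOXA1, GRHL2, ESRP1 and OVOL2 were near the floor, with an average log2 CPM of -1.84 to -1.13. Those lower were SPINT2, EHF and GATA3, at an average log2 CPM of 7.66, 5.21 and 3.92. KLF5, at 5.94, was higher (1.01 ± 0.06, adjusted p = 4.58e-14), and SPINT2, a protease inhibitor, was lower (-0.78 ± 0.04, adjusted p = 1.10e-15). In ZMYND8 against GFP cells 4 were higher and 3 lower, and both named by the rule were lower, the protease inhibitor SPINT1 (-3.06 ± 0.11, adjusted p = 1.26e-18) and the ETS factor EHF (-2.10 ± 0.08, adjusted p = 1.95e-18).

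Mesenchymal genes other than the members were lower for 14 and higher for 5 of 22 tested in ZMYND8 cells (median -0.65), and lower for 16 and higher for 5 after 48 h in GFP cells (median -0.67). Of those higher after 48 h, THY1 and DCN were near the floor, with an average log2 CPM of -1.82 and -1.72. SPARC, a matrix protein, went from 163 ± 2.96 CPM in GFP to 1.18 ± 0.549 CPM in ZMYND8 cells (SD, n = 2), a log2 fold change of -7.17 ± 0.11 (adjusted p = 1.72e-26). LOX, which cross-links collagen, was lower too (-2.35 ± 0.06, adjusted p = 1.84e-22). In untreated transient control cells SPARC stood at 4.71 ± 1.98 CPM, closer to the ZMYND8 line than to the GFP line. LOX stood at 180 ± 12.9 CPM there, closer to the GFP line (146 ± 1.31 CPM) than to the ZMYND8 line (28.7 ± 0.691 CPM). With doxorubicin NT5E (CD73) fell by 1.91 ± 0.04 on the log2 scale (adjusted p = 1.00e-23) and FN1 (fibronectin) by 1.71 ± 0.04 (adjusted p = 5.02e-22).

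Among other EMT transcription factors, 6 were higher and 7 lower of 17 tested in ZMYND8 cells, where 28.7% of all genes were higher and 29.5% lower, and 3 higher and 8 lower after 48 h in GFP cells, where 32.4% were higher and 31.8% lower. HMGA2, an architectural chromatin protein, was higher in ZMYND8 cells (1.30 ± 0.05, adjusted p = 2.28e-17) and SOX4 lower (-1.07 ± 0.06, adjusted p = 3.09e-15). SOX4 also fell with doxorubicin in GFP cells (-3.13 ± 0.07, adjusted p = 2.55e-23), as did WWTR1, the coactivator TAZ (-1.14 ± 0.05, adjusted p = 7.22e-18). This comparison shares the untreated GFP libraries with the one before. Mean SOX4 went from 121 to 13.8 CPM in GFP cells at 48 h and from 57.8 to 37.8 CPM in ZMYND8 cells. In untreated transient control cells it was 7.35 CPM.

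TGF-beta signalling, the best known inducer of SNAI and ZEB genes, was represented by 24 genes, all tested. They include inhibitors of the pathway, such as SMAD7 and SMURF2, and genes of its BMP branch. The counts therefore give no direction of signalling. In ZMYND8 cells 12 were lower and 5 higher (median -0.18), and after 48 h in GFP cells 20 were lower and 3 higher (median -0.60). The receptor gene TGFBR2 was lower in both comparisons, in ZMYND8 cells (log2 change -1.94 ± 0.04, adjusted p = 4.65e-24) and with doxorubicin (log2 fold change -1.73 ± 0.04, adjusted p = 6.66e-23). Both comparisons share the untreated GFP libraries. BMP4 was lower in ZMYND8 cells (-1.29 ± 0.04, adjusted p = 5.01e-19) and SMURF2, a ubiquitin ligase of the pathway, with doxorubicin (-1.39 ± 0.04, adjusted p = 1.23e-20).

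In a list of corepressors drawn up around SNAI and ZEB proteins, 11 were higher and 1 lower of 14 tested in untreated ZMYND8 cells, with a median of 0.26. CTBP2 was higher by 1.07 ± 0.05 (adjusted p = 8.27e-17) and the histone demethylase KDM5C by 0.79 ± 0.05 (adjusted p = 5.03e-14), both on the log2 scale. The study reports KDM5C and EZH2, both in this list, as partners of ZMYND8 itself. Mean CTBP2 in untreated transient control, GFP and ZMYND8 cells was 138, 86.1 and 181 CPM, and mean KDM5C 183, 110 and 191 CPM. After 48 h in GFP cells 7 were higher and 4 lower, with the DNA methyltransferase DNMT1 at 1.17 ± 0.05 (adjusted p = 1.70e-17) and the Polycomb gene EED at 1.03 ± 0.06 (adjusted p = 9.77e-14). In ZMYND8 cells 5 were higher and 8 lower after 48 h, against 31.6% and 30.8% of all genes tested. The difference between the treated lines at 48 h was 4 higher and 6 lower in ZMYND8 cells (median -0.04), against 28.4% and 31.6% of all genes. The interaction at 48 h was below 0 for 11 and above 0 for 1 of the genes called (median -0.35). Over all genes tested 28.6% were called for this interaction, in either direction.

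**Figure D4:**
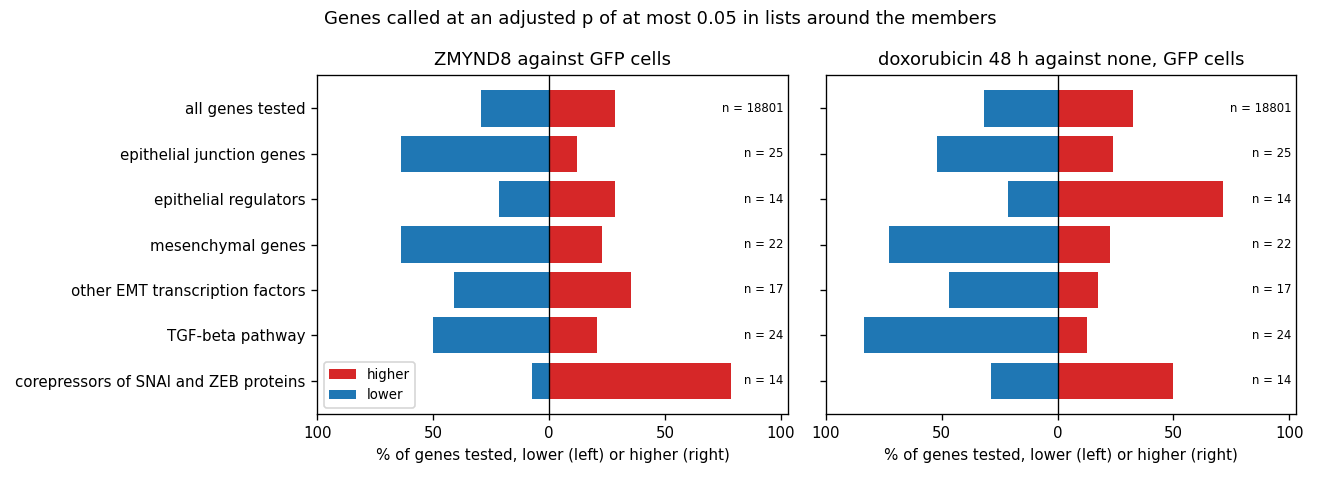
Share of the genes tested in each list that were called lower (blue, left) or higher (red, right) at an adjusted p of at most 0.05, in percent, with the number tested at the right. All 18801 genes tested are shown on top. After 48 h of doxorubicin 20 of 24 TGF-beta pathway genes were lower, where 31.8% of all genes were.

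In the transient experiment 5.13% of all genes tested were called with doxorubicin, where 64.2% were in GFP cells at 48 h, and the counts of these lists stand beside that share. CGN rose from 2.68 ± 1.33 to 22.7 ± 6.39 CPM (log2 fold change 3.11 ± 0.37, adjusted p = 0.00461). Of 21 junction genes 1 was called higher, CGN, and 1 lower. Of 18 mesenchymal genes 1 was higher and 3 lower, ACTA2 (smooth muscle actin) at 1.74 ± 0.28 and TAGLN at -1.86 ± 0.30 (adjusted p = 0.00919 for both). SOX4 (-2.20 ± 0.42, adjusted p = 0.0168) and FOXQ1 (-1.57 ± 0.28, adjusted p = 0.0138) were the 2 factors of 14 called, and TGFB2 (-1.42 ± 0.25, adjusted p = 0.0125) and BMP4 (-1.33 ± 0.29, adjusted p = 0.0269) the 2 of 23 TGF-beta genes. DNMT1 (1.03 ± 0.20, adjusted p = 0.0181) and EZH2 (0.90 ± 0.20, adjusted p = 0.0278) were the 2 of 14 corepressors, and SPINT2 (-0.84 ± 0.20, adjusted p = 0.0363) the 1 of 10 epithelial regulators.

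Over the 12 inducible libraries, which cover 6 conditions and share normalization, 12358 genes were compared with each member by Pearson's r of log2 CPM. Among the most alike were LINC00707 (0.996) and EME1 (0.986) for CDH1, VPS35L (0.994) for EPCAM, and RPS16 (0.991) and RPL36 (0.991) for VIM. For SNAI1 they were TTC32 (0.974) and ZNF443 (0.971), and for SNAI2 PPID (0.991) and EARS2 (0.990). MEGF9 (0.993) was among those most like ZEB1, and ATF2 (0.989) and CCDC6 (0.988) among those most like ZEB2. None of the members stood among the nearest genes. These values describe the course over the conditions and carry no test.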

How the data were processed

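The authors deposited raw read-pair counts per gene in 2 tables, 1 for each experiment. Per the file headers they were made with featureCounts 1.6.4 on GENCODE release 31 with strand setting 2 (reverse). The genome was hg38. The submitters' processing notes name Trim Galore, HISAT2, featureCounts and DESeq2, whereas the methods of the study name TopHat and cuffdiff, so the aligner behind the counts is uncertain. Symbols were matched from gene IDs.

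For each experiment edgeR 4.0.16 (run in R 4.3.3) was used with TMM normalization, the quasi-likelihood test and 1 mean per condition, after filterByExpr, which left 15697 (transient) and 18801 (inducible) genes. P-values were adjusted over these genes after Benjamini and Hochberg, and SE was taken as the log2 fold change divided by the root of F. The smallest two-sided p that an exact permutation of 2 against 2 libraries allows is 0.333. The fit was tested on simulated data. Alternatives were total counts, RLE size factors, DESeq2 1.42.0, no filter, a replicate block, the criterion of the study, only the groups compared, and leaving out libraries. Where a group had at most 3 counts per library, pooled counts give a ratio with a 95% Clopper-Pearson interval. Promoter windows were searched for CAGGTG and CACCTG. Strand separation was checked in antisense genes with at least 90% of their exons within a gene of at least 20 CPM.

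The members and all gene lists were chosen with earlier results of these data known. Besides the members, up to 2 genes per list were named, those with the smallest adjusted p at an average log2 CPM of at least 1, and up to 2 genes most like each member. Some genes that this rule selects are not reported here.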

Additional observations from a re-analysis of the deposited data

Results flagged for a closer look

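The response to doxorubicin differed between GFP and ZMYND8 cells by the interaction test for 3 members. For CDH1 the interaction at 48 h was -1.57 on the log2 scale. For VIM it was 0.31 at 6 h and 0.43 at 48 h. For ZEB1 it was 0.41 at 6 h and 0.30 at 48 h. In all 5 cases the untreated lines also differed in level, CDH1 being higher and VIM and ZEB1 lower in ZMYND8 cells. For VIM that difference was small, -0.16 on the log2 scale and -0.088 without the first untreated ZMYND8 library. No member had libraries that moved wholly one way with 48 h of doxorubicin in the transient experiment and wholly the other way in GFP cells. Of the 7 members tested there, only EPCAM, VIM and SNAI1 had transient libraries without overlap, so the check could not show a difference for the rest. The check for a single outlying library by its gap to the others needs at least 4 libraries per condition and was not applied.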

How the results depend on the processing

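By the criterion of the study, which adds a fold limit, fewer members were called in the inducible lines. The number was 3 for ZMYND8 against GFP, 0 for GFP at 6 h, 3 for GFP at 48 h, 1 for ZMYND8 at 6 h, 3 for ZMYND8 at 48 h, 3 and 2 for ZMYND8 against GFP at 6 and 48 h, and 0 and 1 for the interactions at 6 and 48 h. In the transient experiment it was 1 for doxorubicin and 2 for the libraries labelled ZMYND8 plus doxorubicin. Without a filter on low counts each of these comparisons with control called 1 member, CDH1. A replicate block also called 1 member in each, again CDH1 (adjusted p = 0.0217 and 0.0117). Replicate numbers pair no cultures in the labels. Differences between first and second libraries correlated between conditions at 0.208 to 0.404 (transient) and -0.0458 to 0.0216 (inducible). The block changed no other call. With 1 library left out, the number called for GFP at 6 h was 3 to 6. SNAI2 in GFP cells at 48 h reversed with total counts, to 0.076. Of 602 values for 58 changes of single members, 574 kept direction and side of the threshold, 20 lost and 7 gained a call, and 46 changes kept theirs throughout. Changes not called in the main analysis had the other sign in 31 of 498 values. CDH1 failed the filter in the transient comparisons with control when only the compared groups were used or both second treated libraries were left out, so no value is given. At this depth TWIST1 passed the filter in neither experiment, and CDH2 did not in the transient one.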
